A study of Mus musculus with 36 samples.

Results

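The muscle-type isoforms of energy metabolism are 10 genes whose proteins carry fuel and oxygen or turn over ATP in heart and skeletal muscle. They are Fabp3, Mb, Ckm, Ckmt2, Cox6a2, Cox7a1, Cox8b, Eno3, Pgam2 and Pygm. They were taken by gene name from the deposited tables, where each matched 1 entry of 37561. The study followed the mouse embryonic stem cell line AB2.2 through heart muscle formation, with and without the long noncoding RNA LncCPR. The control, unedited AB2.2, and its LncCPR knockout were each collected at days 0, 3, 5, 8, 10 and 12, with 3 libraries in each of 12 groups and 36 libraries in all. Day 0 is undifferentiated stem cells grown with the cytokine LIF. From day 3 on, LIF was absent and the samples were whole embryoid bodies, aggregates grown in hanging drops in which many cell types form side by side. The knockout was made in AB2.2 cells with Cas9 and a pair of guides on either side of the gene, followed by single-cell sorting and expansion of cells that carried the deletion, and the labels do not say how many clones the 18 knockout libraries come from. No entry of the tables bears the name LncCPR, so the deletion itself was not checked here.

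Levels are FPKM, fragments scaled by transcript length and by the library's total, so they can be compared between genes. Library sums ran from 294740 to 403675 FPKM, and 11248 to 13183 genes lay above 1 FPKM in a library. The files give no read totals and depth is therefore unknown in absolute terms. Relative depth, read from the steps between low values, spanned 0.562 to 1.83 times that of control replicate 1 at day 0, and knockout replicate 1 at day 8 was the shallowest. Each day has its own table, and it is not stated whether the tables were scaled together, so levels were set side by side across days but not tested. Nothing says whether libraries of a group came from separate cultures, so p-values measure only the spread between these libraries.

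Muscle burns fuel at rates that change within seconds, and many of its metabolic enzymes exist as a muscle isoform beside a form found in most tissues. Myoglobin and fatty acid binding protein bring oxygen and fatty acids to the mitochondria, whose last respiratory complex, cytochrome c oxidase, carries muscle versions of several small subunits. Creatine kinases move phosphate from mitochondria to the contractile filaments, and glycogen phosphorylase and the muscle enolase and phosphoglycerate mutase supply glycolysis. In the developing heart several of these genes come on after the sarcomere genes and gain expression as the muscle matures.

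The members fell into 3 groups by level. Cox6a2, Pgam2, Pygm and Mb were lower to day 5, where Pgam2 still averaged 1.05 FPKM or more in every group, and higher in the control from day 8 or 10, where the knockout libraries lay below the control. Eno3, Fabp3 and Cox7a1 also averaged 1 FPKM or more at all 6 days in both lines. Ckm, Ckmt2 and Cox8b never reached 1 FPKM in any of the 36 libraries.

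Every gene whose mean over the 6 libraries of a day reached 1 FPKM was tested for knockout minus control with limma on log2(FPKM + 1), with Benjamini-Hochberg adjustment over all genes of the day and a threshold of 0.05. At day 8, 6 members were tested and 3 were lower in the knockout, against 2% of all 12695 genes tested. At day 10, 4 of 7 were lower, against 5.12% of all genes. At day 12, 4 of 7 were lower against 3.48% of all genes, and 1 was higher against 3.22%. None of the 5, 4 and 4 members tested at days 0, 3 and 5 passed. Of all genes, 8.03%, 0.668% and 3.32% were lower and 6.49%, 1.09% and 7.07% higher at those days. At an unadjusted p under 0.05 limma gave 1 member at day 0 (Pgam2), 2 at day 3 (Pgam2 and Cox7a1) and 2 at day 5 (Cox7a1 and Eno3), where 31.2%, 10.7% and 27.4% of all genes were under it. Libraries of the lines did not overlap, with the knockout lower, for 2, 0 and 0 tested members at days 0, 3 and 5, where this held for 19.7%, 3.02% and 7.83% of all genes. The knockout was higher without overlap for 0, 1 and 2 members, against 16.8%, 14.5% and 26.1% of all genes. At days 8, 10 and 12 the knockout was lower without overlap for 3, 4 and 4 members, against 8.48%, 9.47% and 11.8%, and higher for 0, 0 and 1, against 14.2%, 30.9% and 18.2%. The median log2 fold change of the tested members was -0.997 at day 8, -1.04 at day 10 and -0.87 at day 12, where the medians of all genes were 0.09, 0.17 and 0.05. Members that entered the test did so partly through their control level. Cox6a2 at day 8 and Mb at day 10 had knockout means of 0.652 and 0.666 FPKM, below the filter of 1 FPKM. The members were also chosen with earlier results of these data known, so these counts and medians describe the tested members only. Rescaling the libraries of a day to each other moved the median of all genes by -0.14, -0.12, -0.10, -0.17 and -0.05 on the log2 scale at days 3, 5, 8, 10 and 12, and 4, 5 and 5 members then passed at days 8, 10 and 12, with Eno3 added at days 8 and 10. In whole embryoid bodies, fewer cells of a type and less RNA per cell cannot be told apart.

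**Figure D1:**
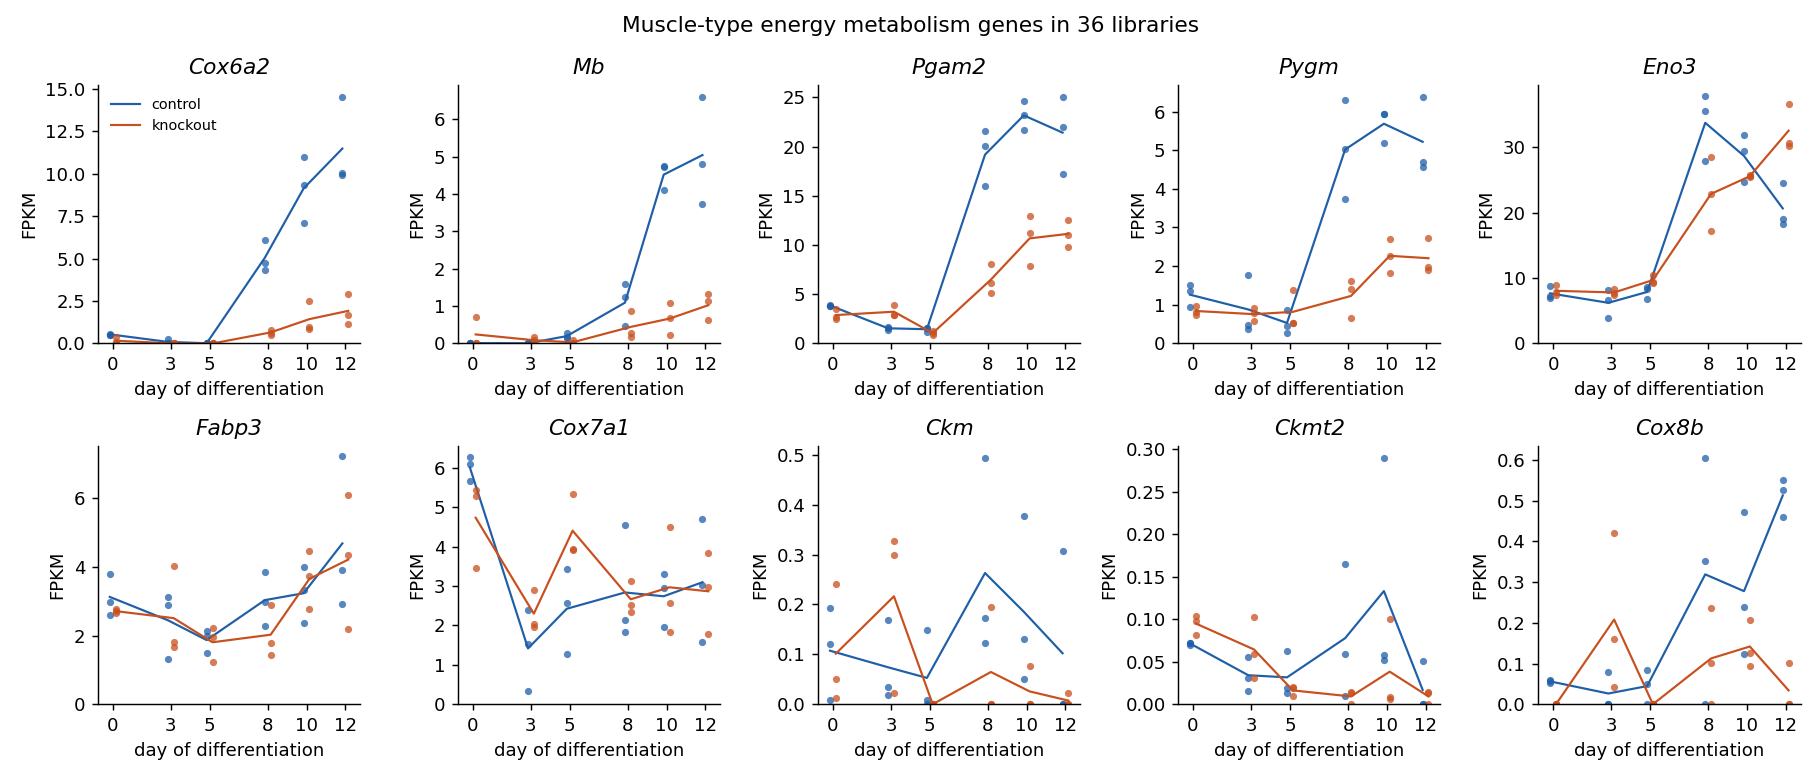
Level in FPKM (y axis, linear from 0, scaled per gene) against day of differentiation (x axis) for the 10 members, with points for the 36 libraries and lines through the means of 3 control (blue) or 3 knockout (orange) libraries. Cox6a2, Mb, Pgam2 and Pygm separate the lines late, Eno3 crosses over between days 8 and 12, and Ckm, Ckmt2 and Cox8b stay under 1 FPKM.

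The oxygen carrier Mb, myoglobin, is the textbook marker of oxidative muscle. Its highest level in the 6 libraries of day 3 was 0.168 FPKM, in knockout replicate 1. At day 8 it was at 1.24, 1.58 and 0.459 FPKM in control replicates 1 to 3 and at 0.868, 0.286 and 0.179 FPKM in the knockout. The day 8 groups overlapped, and their joint mean was too low for Mb to be tested there. Control libraries of day 10 held 4.74, 4.10 and 4.72 FPKM of Mb, and knockout libraries 0.240, 0.675 and 1.08. At day 12 the control held 4.80, 3.74 and 6.60 FPKM and the knockout 0.626, 1.13 and 1.32. On both days every knockout library was below every control library, and the knockout mean was 14.7% and 20.3% of the control mean. Mb fell by 1.76 on the log2 scale at day 10 (SE 0.20, limma adjusted p = 0.000104) and by 1.57 at day 12 (SE 0.22, adjusted p = 0.00481). The knockout at day 12 stood at 1.02 ± 0.360 FPKM (SD, n = 3), next to the control of day 8 at 1.09 ± 0.576 FPKM (SD, n = 3) in the order of levels, and those libraries overlapped.

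Fabp3 encodes the heart-type fatty acid binding protein, which ferries fatty acids through the cytoplasm. It was above 1 FPKM in all 36 libraries, from 1.24 to 7.24 FPKM with a median of 2.78. At day 8 it was at 2.27, 2.97 and 3.86 FPKM in the control and 2.88, 1.42 and 1.78 FPKM in the knockout, and the groups overlapped. At day 12 control libraries held 3.90, 7.24 and 2.93 FPKM and knockout libraries 6.10, 4.35 and 2.20, again with overlap. Its log2 fold change lay between -0.42 (SE 0.23, limma adjusted p = 0.365) at day 8 and 0.14 (SE 0.19, adjusted p = 0.646) at day 10, and it passed the test at no day. In the order of its 12 group means no neighbouring groups were separated. Zcchc17, a gene on the opposite strand that overlaps Fabp3, was at 9.57 FPKM in the control and 16.5 FPKM in the knockout at day 8, and it is not stated whether the counting used strand.

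The creatine kinases were the members with the lowest levels. Ckm, the cytosolic muscle form, peaked at 0.493 FPKM in control replicate 1 of day 8 and was listed at 0 in 12 of 36 libraries. Ckmt2, the mitochondrial form of sarcomeric muscle, peaked at 0.290 FPKM in control replicate 1 of day 10. Neither entered the test at any day. The forms of other tissues were present in the same libraries: Ckb, the brain-type cytosolic kinase, was at 23.7 ± 1.59 FPKM in the control of day 8 and 18.9 ± 4.70 FPKM in the knockout (SD, n = 3 each). Ckmt1, the ubiquitous mitochondrial kinase, was at 2.08 ± 0.444 FPKM in the control and 5.59 ± 2.03 FPKM in the knockout at day 8 (SD, n = 3 each). Ckmt1 was higher in the knockout at day 8 (log2 fold change 1.07, SE 0.23, limma adjusted p = 0.0371) and at day 10 (0.87, SE 0.18, adjusted p = 0.00559) and passed no test at day 12 (0.32, SE 0.23, adjusted p = 0.44). At day 0 Ckmt1 was lower in the knockout (-0.52, SE 0.12, adjusted p = 0.0278), and at day 5 it was higher (0.59, SE 0.11, adjusted p = 0.00795). Ckb passed the test at no day. In both lines the non-muscle creatine kinases were above the muscle forms.

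Among the muscle subunits of cytochrome c oxidase, Cox6a2 differed most between the lines. Cox6a2 is the heart and skeletal muscle form of subunit 6A, a small regulatory subunit. It was at 0 in all 3 knockout libraries of days 3 and 5. Control libraries held 0, 0 and 0.280 FPKM of Cox6a2 at day 3 and 0.0453, 0 and 0 FPKM at day 5. At day 8 it was at 6.08, 4.72 and 4.34 FPKM in the control and 0.625, 0.812 and 0.519 FPKM in the knockout. At day 10 control libraries held 7.06, 9.31 and 11 FPKM and knockout libraries 0.958, 2.48 and 0.859. The control of day 12 was at 10.0, 9.90 and 14.5 FPKM, and the knockout at 2.92, 1.68 and 1.16. Every knockout library lay below every control library on these 3 days, and the knockout mean was 12.9%, 15.7% and 16.7% of the control mean. Cox6a2 fell by 1.86 (SE 0.19, limma adjusted p = 0.000441), 2.10 (SE 0.23, adjusted p = 8.66e-05) and 2.12 (SE 0.23, adjusted p = 0.00151) on the log2 scale at days 8, 10 and 12. These fold changes are on the log2(FPKM + 1) scale, which understates the change of a low gene. Its level in the knockout at day 12, 1.92 ± 0.902 FPKM (SD, n = 3), was 38.1% of that in the control at day 8, with no overlap of libraries, across tables and untested. At day 0, where it was too low to be tested, Cox6a2 was at 0.586, 0.514 and 0.515 FPKM in the control and 0, 0.103 and 0.390 FPKM in the knockout.

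Cox7a1, the muscle form of subunit 7A, which is also abundant in brown fat, followed another course. It was highest at day 0, with 6.26, 5.66 and 6.09 FPKM in the control and 5.29, 3.46 and 5.45 FPKM in the knockout. At day 3 its log2 fold change was 0.54 (SE 0.26, limma adjusted p = 0.462). At day 5 it was at 3.42, 1.27 and 2.58 FPKM in the control and 3.95, 5.34 and 3.93 FPKM in the knockout, and all knockout libraries were above all control libraries. This difference missed the threshold (log2 fold change 0.70, SE 0.22, limma adjusted p = 0.0669). At days 8, 10 and 12 the control means were 2.84, 2.74 and 3.10 FPKM and the knockout means 2.66, 2.97 and 2.87 FPKM, the libraries overlapped, and the log2 fold changes were -0.01, 0.05 and -0.05 with SEs of 0.25, 0.23 and 0.30. Cox8b, the muscle and brown fat form of subunit 8, reached at most 0.605 FPKM, in control replicate 2 of day 8. At day 12 Cox8b was at 0.552, 0.460 and 0.527 FPKM in the control and 0.102, 0 and 0 FPKM in the knockout, which do not overlap, but its mean was too low for the test.

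Glycolysis and glycogen breakdown were represented by Pgam2, Eno3 and Pygm, the muscle forms of phosphoglycerate mutase, enolase and glycogen phosphorylase. The stretches before their start sites are shown because Pgam2 and Pygm were called lower at days 8, 10 and 12, as was Cox6a2. Eno3 was called lower at no day in the main test, but it was at days 8 and 10 with the libraries rescaled. RefSeq promoters on GRCm38.p6 were matched for 9 members; none was matched for Cox6a2. The 250 bases before the start were searched on both strands for the E-box CANNTG, bound by basic helix-loop-helix factors, the GATA element AGATAA, the M-CAT element CATTCC, the ERR element TCAAGGTCA, the MEF2 element and the CArG box. Matches are in capitals, and each sequence is written 5′ to 3′ on the strand of its gene.
Pgam2, chr11:5803797-5804046, minus strand: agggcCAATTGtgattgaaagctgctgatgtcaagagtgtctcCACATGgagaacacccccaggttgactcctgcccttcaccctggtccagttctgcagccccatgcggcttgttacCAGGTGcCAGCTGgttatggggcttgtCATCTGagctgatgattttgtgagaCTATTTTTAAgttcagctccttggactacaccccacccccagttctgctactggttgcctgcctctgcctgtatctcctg
Pygm, chr19:6384158-6384407, plus strand: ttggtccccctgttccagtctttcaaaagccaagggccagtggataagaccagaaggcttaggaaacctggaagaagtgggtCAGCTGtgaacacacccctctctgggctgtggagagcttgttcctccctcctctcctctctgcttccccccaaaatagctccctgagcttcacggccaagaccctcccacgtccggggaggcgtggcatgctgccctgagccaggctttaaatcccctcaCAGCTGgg
Eno3, chr11:70656926-70657175, plus strand: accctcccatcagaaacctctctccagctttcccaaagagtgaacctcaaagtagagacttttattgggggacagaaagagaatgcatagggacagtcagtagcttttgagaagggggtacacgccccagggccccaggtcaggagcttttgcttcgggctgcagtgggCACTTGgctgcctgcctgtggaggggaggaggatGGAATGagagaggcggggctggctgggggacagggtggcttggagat
The Pgam2 window holds a MEF2 element, CTATTTTTAA, 80 to 71 bases before the start, and 5 E-boxes. A MEF2 element occurs in 2.92% of 32851 promoter windows, an E-box in 66.2%. Pygm has 2 E-boxes, the nearer at 8 to 3 bases before the start. Eno3 has 1 E-box and an M-CAT element 47 to 42 bases before the start, and M-CAT elements occur in 12.6% of windows. Among the other members, Cox7a1 holds 2 GATA elements, which occur in 9.99% of windows. No window of the 9 members held the ERR element (0.387% of windows) or the CArG box (1.47%). A match describes the letters only; these tables hold no binding data.

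Pgam2, which converts 3-phosphoglycerate to 2-phosphoglycerate, was at 21.5, 20.0 and 16.0 FPKM in the control libraries of day 8 and 6.18, 8.10 and 5.16 FPKM in the knockout. At day 10 the control held 23.2, 24.6 and 21.7 FPKM and the knockout 7.88, 12.9 and 11.2. The values at day 12 were 22.0, 17.2 and 25.0 FPKM against 12.5, 11 and 9.85. The groups were fully separated on all 3 days, and the knockout mean was 33.8%, 46.1% and 52.0% of the control mean. Pgam2 fell by 1.44 (SE 0.18, limma adjusted p = 0.00191), 1.07 (SE 0.17, adjusted p = 0.000963) and 0.87 (SE 0.15, adjusted p = 0.0124) on the log2 scale at days 8, 10 and 12. Without knockout replicate 3 the day 12 call was lost (log2 fold change -0.80, adjusted p = 0.0539). Before day 8 Pgam2 was low and its lines differed in no steady direction: at day 0 the control held 3.82, 3.8 and 3.96 FPKM and the knockout 2.53, 3.46 and 2.67. At day 3 the order was the opposite, with 1.42, 1.56 and 1.65 FPKM in the control and 3.91, 2.87 and 2.90 FPKM in the knockout. Libraries did not overlap on either day, but neither difference passed (log2 fold changes -0.33, SE 0.12, limma adjusted p = 0.105 and 0.73, SE 0.22, adjusted p = 0.103).

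Pygm, the phosphorylase that releases glucose units from muscle glycogen, ran at a lower level with the same pattern. At day 8 it was at 3.73, 6.29 and 5.03 FPKM in the control and 0.667, 1.61 and 1.41 FPKM in the knockout. At day 10 the control was at 5.95, 5.93 and 5.18 FPKM and the knockout at 1.83, 2.27 and 2.71. Day 12 gave 4.56, 4.71 and 6.38 FPKM in the control and 1.97, 1.90 and 2.74 FPKM in the knockout. No libraries of the lines overlapped, and the knockout mean was 24.5%, 39.9% and 42.3% of the control mean. Pygm fell by 1.44 (SE 0.23, limma adjusted p = 0.00907), 1.04 (SE 0.16, adjusted p = 0.00111) and 0.95 (SE 0.18, adjusted p = 0.016) on the log2 scale. The day 12 call was lost without knockout replicate 1 (adjusted p = 0.0601) or without knockout replicate 2 (adjusted p = 0.0612). At days 0, 3 and 5 all group means of Pygm were between 0.531 and 1.26 FPKM, and the libraries of the lines overlapped at each of these days.

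Eno3, the muscle enolase, was the most abundant member and had another course. At day 8 it was at 37.8, 35.5 and 27.9 FPKM in the control and 22.9, 28.5 and 17.2 FPKM in the knockout, which overlap slightly. At day 10 the control held 29.5, 31.9 and 24.7 FPKM and the knockout 25.7, 25.5 and 25.5. By day 12 the control was at 19.0, 18.3 and 24.6 FPKM and the knockout at 30.7, 36.7 and 30.2, and every knockout library was above every control library. The log2 fold change was -0.56 at day 8 (SE 0.19, limma adjusted p = 0.167), -0.15 at day 10 (SE 0.14, adjusted p = 0.451) and 0.64 at day 12 (SE 0.14, adjusted p = 0.0277). Only the day 12 difference passed, and that call held in 1 of 6 fits that left out a library, in which adjusted p ran from 0.0171 to 0.0993. The call was kept without control replicate 3 and lost without each of the other 5 libraries. With the libraries of a day rescaled to each other, the lower level at day 8 also passed (-0.66, SE 0.13, adjusted p = 0.0281), as did that at day 10 (-0.34, SE 0.07, adjusted p = 0.0107). Before day 8 Eno3 lay between 3.88 and 10.4 FPKM, and its difference passed no test (0.27 on the log2 scale at day 5, SE 0.12, adjusted p = 0.174).

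**Figure D2:**
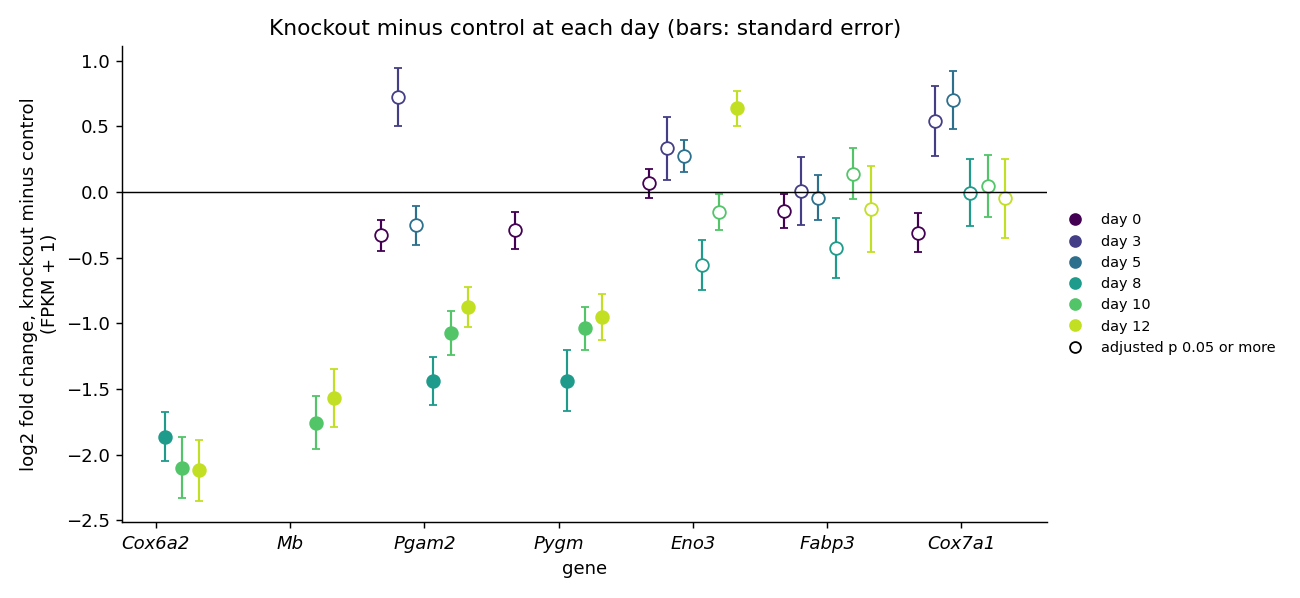
Log2 fold change of knockout minus control on the log2(FPKM + 1) scale (y axis) for the 7 members tested at any day (x axis), coloured by day, with the standard error from limma over 3 control and 3 knockout libraries as bars. Filled points have an adjusted p under 0.05: Cox6a2, Mb, Pgam2 and Pygm lie below 0 at the late days and Eno3 moves from -0.56 at day 8 to 0.64 at day 12.

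Whether the effect of the knockout depended on the day was tested in a single limma fit of all 36 libraries with an F test over the 12 groups. Of the 7 members with enough signal, 5 passed, against 17.1% of all 13022 genes: Cox6a2 (adjusted p = 7.91e-08), Pgam2 (2.23e-07), Mb (5.44e-06), Pygm (0.000659) and Eno3 (0.00807). Fabp3 (adjusted p = 0.875) and Cox7a1 (adjusted p = 0.4) did not. The day 12 effect minus the day 8 effect, which 3.38% of all genes passed, was 1.19 for Eno3 (SE 0.25, limma adjusted p = 0.00299). For Mb it was -1.04 (SE 0.30, adjusted p = 0.0486), the knockout being further below the control at day 12. For Pgam2 the later effect was the smaller, by 0.57 (SE 0.23), and for Pygm by 0.48 (SE 0.31), but neither passed (adjusted p = 0.229 and 0.577). Cox6a2 gave -0.25 (SE 0.29, adjusted p = 0.81). Mb did not pass this comparison with the pseudocount 0.1, where the difference was -1.02 (SE 0.83, adjusted p = 0.736).

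The order of the 12 group means was similar for the members that fell. For Cox6a2 it ran from the control at day 12 over days 10 and 8 of the control to days 12, 10 and 8 of the knockout, and neighbouring groups were separated between control day 10 and control day 8, between control day 8 and knockout day 12, between knockout days 10 and 8, and between the controls and knockouts of day 0. For Pgam2 the control at days 10, 12 and 8 came first, without separation among them, then the knockout at days 12 and 10, then the knockout at day 8, which lay above all earlier groups. Pygm had the same top 3 groups, followed by the knockout at days 10 and 12, and the knockout at day 8 overlapped with the control at day 0. In the knockout at day 12, Pgam2 stood at 58.1% and Pygm at 44.0% of the control level of day 8, without overlap of libraries. Eno3 in the knockout at day 12, by contrast, was at 96.4% of that level, and the libraries overlapped.

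A share within a pair of isoforms does not depend on how libraries were scaled. In the control at day 8, Cox6a2 made up 22.8% ± 2.02 (SD, n = 3) of the FPKM of Cox6a2 and Cox6a1, the form of other tissues, and 3.28% ± 0.761 in the knockout. The share was 34.3% ± 8.66 against 7.42% ± 3.65 at day 10 and 33.7% ± 7.30 against 7.99% ± 2.22 at day 12. Cox6a1 itself was at 17.0 and 19.2 FPKM in control and knockout at day 8 and passed no test at days 8, 10 and 12. Pgam2 made up 66.3% ± 3.69 of Pgam2 and Pgam1 in the control and 38.8% ± 1.32 in the knockout at day 8, and 71.1% ± 3.78 against 49.9% ± 3.75 at day 12. Pygm made up 23.8% ± 5.00 of Pygm and Pygb, the brain phosphorylase, against 8.66% ± 2.82 at day 8, and 16.8% ± 3.05 against 8.40% ± 1.65 at day 12 (SD, n = 3 each). The shares of these 3 genes did not overlap between the lines at days 8, 10 and 12. Nor did those of Fabp3 (5.97% against 3.05%) and Ckmt2 at day 8, Eno3 at days 8 and 10 and Cox8b at day 12, all lower in the knockout. Before day 8 shares without overlap were lower for Cox6a2 and Cox8b at day 0 and Ckmt2 at day 5. They were higher for Ckmt2 at day 0 and Pgam2 at day 3. Ckmt2 and Cox8b were under 1 FPKM throughout. Each exact two-sided permutation test gave p = 0.1, the smallest that 3 against 3 allows, and 0.284 after Benjamini-Hochberg adjustment over the 54 shares compared.

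The enolase pair differed from these. Eno3 made up 73.4% ± 3.79 of Eno3 and Eno1 in the control and 59.0% ± 7.04 in the knockout at day 8, and 70.2% ± 5.58 against 70.3% ± 2.42 (SD, n = 3 each) at day 12 (exact permutation p = 0.1 and 1). Eno1, the enolase of most tissues, was itself higher in the knockout at day 5 (0.71, limma adjusted p = 0.00618), day 10 (log2 fold change 0.65, SE 0.15, limma adjusted p = 0.0113) and day 12 (0.61, SE 0.13, adjusted p = 0.026). At day 12, where Eno3 was higher in the knockout, Eno1 was at 8.66 ± 1.28 FPKM in the control and 13.7 ± 0.679 FPKM in the knockout (SD, n = 3 each), so both enolases were higher, and their shares overlapped. Among the remaining partners, Fabp5 was higher in the knockout at day 10 (0.59, SE 0.15, limma adjusted p = 0.0174, and 0.127 with the libraries rescaled), and Cox7a2, Cox8a, Pgam1 and Pygb passed no test at days 8, 10 or 12. With the libraries rescaled Pygb was lower at day 10 (-0.51, SE 0.09, limma adjusted p = 0.00757), so that 1 of 12 partners was lower and 2 were higher, in place of 0 and 3. The partners also differed in stem cells: at day 0, 6 of 11 tested were lower and none higher, where 8.03% and 6.49% of all genes were. Reads of Eno1 may be split with its near-identical copy Gm5506 (6.55 FPKM in the control at day 8), and those of Pgam1 with Pgam1-ps2 (34.0 FPKM), so the shares of both pairs are uncertain in size.

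**Figure D3:**
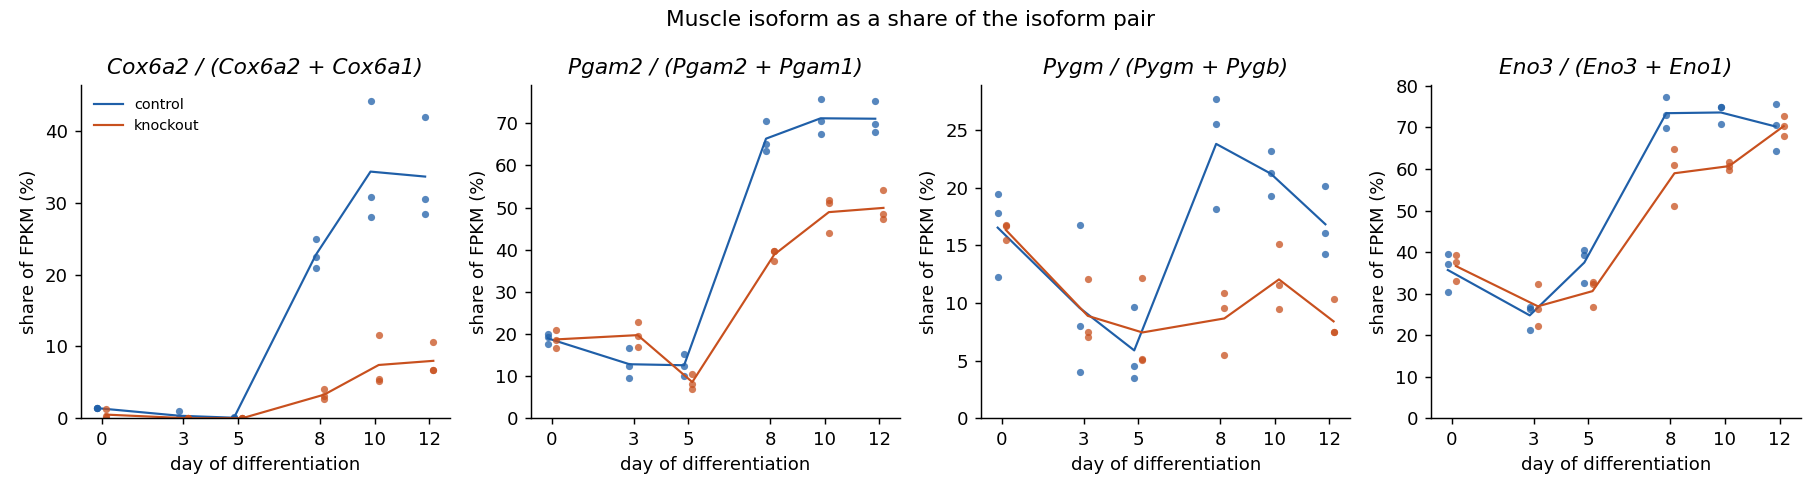
Share of the muscle isoform in the summed FPKM of the isoform pair, in percent (y axis, from 0), against day (x axis) for 4 pairs; points are the 36 libraries and lines the means of 3 libraries per line and day. The knockout share is lower at days 8, 10 and 12 for Cox6a2, Pgam2 and Pygm, and meets the control at day 12 for Eno3.

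Most tested genes of the pathways around these members passed no test at days 8, 10 and 12. Of all genes, 2%, 5.12% and 3.48% were lower and 1.28%, 15% and 3.22% higher at these days. At day 0, 7 of 25 glycogen and glycolysis genes were lower and none higher, where 8.03% and 6.49% of all genes were. Among genes named by the rule given next, Slc2a1 (limma adjusted p = 0.000749) and Phkb (0.027) were lower at day 0 and Lpl (0.00623) at day 3. Cpt1a (0.00474) and Cox6b2 (0.0408) were higher at day 5. The genes named next follow a rule of the 4 smallest adjusted p-values per list at day 8 or 12, and other genes that passed were added after their values were seen: Pkm2, Gapdh, Ldha, Pfkl, Slc2a4, Acsl1, Etfb, Ppargc1a, Esrrg, Pdk2, Esrrb, Nrf1 and Ak1. Of 20 genes of fatty acid uptake and oxidation, 17 were tested at day 8 and none passed, with limma adjusted p = 0.0697 for Lpl and 0.0318 after rescaling. At day 10, 2 of 20 were lower, Lpl (-0.98, adjusted p = 0.00123) and the acyl-CoA synthetase Acsl1 (-0.47, adjusted p = 0.0407), and Etfb, an electron carrier of fatty acid oxidation, was higher (0.43, adjusted p = 0.0438). With the libraries rescaled 5 were lower and 0 higher at day 10. At day 12, 3 of 20 were lower and none higher, with a median log2 fold change of -0.11 where all genes had 0.05. Lpl, the lipase that frees fatty acids from lipoproteins, was at 11.1 ± 0.136 FPKM in the control and 6.77 ± 0.0911 in the knockout at day 12 (SD, n = 3 each, limma adjusted p = 0.0116). Cpt1a, the gate of fatty acid entry into mitochondria, was at 5.10 ± 0.579 and 1.94 ± 0.690 FPKM (SD, n = 3 each, limma adjusted p = 0.0134). Acadl, a long-chain acyl-CoA dehydrogenase, was at 15.2 ± 2.03 and 10.1 ± 1.23 FPKM (SD, n = 3 each, limma adjusted p = 0.049). Fabp3, which serves the same route, passed no test.

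Of 25 further genes of glycogen and glycolysis, 24 were tested at days 8, 10 and 12. Only Gyg passed at day 8, glycogenin, the primer of glycogen synthesis, with 4 lower and 0 higher after rescaling. Gyg was at 41.5 ± 4.41 FPKM in the control and 9.14 ± 0.649 in the knockout (SD, n = 3 each). Gyg fell by 2.06 on the log2 scale at day 8 (SE 0.14, limma adjusted p = 4.26e-05) and by 1.29 at day 10 (SE 0.14, adjusted p = 8.72e-05), and was at -0.33 (SE 0.15, adjusted p = 0.223) at day 12. Slc2a4, the insulin-responsive glucose transporter of muscle and fat, was at 17.6 ± 3.50 FPKM in the control and 6.85 ± 1.45 in the knockout at day 10 (SD, n = 3 each, log2 fold change -1.24, SE 0.17, limma adjusted p = 0.000475). Slc2a4 did not pass at day 8 (-0.96, SE 0.32, adjusted p = 0.153) or day 12 (-1.01, SE 0.34, adjusted p = 0.109). Pygm and Gyg were both lower at days 8 and 10. At day 10, Gyg and Slc2a4 were the 2 lower genes of 24, against 5.12% of all genes. The 5 higher genes were Slc2a1, Pkm2, Gapdh, Ldha and Pfkl, all of glucose uptake or glycolysis, against 15% of all genes. Among them Gapdh was listed at only 3.67 FPKM in the control and 5.84 FPKM in the knockout, where Ldha was at 214 and 302 FPKM. Whether reads of Gapdh were split with copies of the gene was not checked. With the libraries rescaled none of these 5 passed at day 10, and 4 genes were lower. At day 12 the higher ones were the widely expressed glucose transporter Slc2a1 (0.58, SE 0.10, adjusted p = 0.0115), the phosphorylase kinase subunit Phkb (0.49, SE 0.12, adjusted p = 0.039) and the pyruvate kinase Pkm2 (0.46, SE 0.11, adjusted p = 0.0437). Pfkp, a phosphofructokinase, was lower at day 12 (-0.42, SE 0.10, adjusted p = 0.038).

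None of 12 tested genes of creatine, adenylate and ATP transport passed at day 8 and none of 14 at day 12. At day 10 the adenylate kinase Ak1 was higher (log2 fold change 0.44, SE 0.12, limma adjusted p = 0.0248), and with the libraries rescaled it did not pass (adjusted p = 0.0789). After rescaling 1 gene was lower at day 8. Of 10 further cytochrome c oxidase subunits, 1 was higher at each of days 8, 10 and 12 and none lower. At all 3 days it was Cox6b2, a testis-enriched form of subunit 6B, with 19.8 ± 1.5 FPKM in the control and 32.4 ± 5.98 in the knockout at day 8 (SD, n = 3 each). Its log2 fold change was 0.67 (SE 0.16, limma adjusted p = 0.0492) at day 8, 0.95 (SE 0.17, adjusted p = 0.00302) at day 10 and 0.61 (SE 0.13, adjusted p = 0.026) at day 12. The other 9 genes of the list passed no test at these days.

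Of the regulators of energy metabolism and muscle genes, 3 of 13 were lower at day 8, 4 of 15 were lower and 2 higher at day 10, and none of 16 passed at day 12. The 3 of day 8 were Mef2c, Esrrg and Ppargc1a. Mef2c, the MEF2 factor of the early heart, was at 26.3 ± 4.14 FPKM in the control and 7.59 ± 1.59 in the knockout at day 8 (SD, n = 3 each, log2 fold change -1.67, SE 0.18, limma adjusted p = 0.000623). Esrrg, a nuclear receptor that drives oxidative metabolism in the heart, was at 3.74 ± 0.554 and 0.518 ± 0.114 FPKM (SD, n = 3 each, -1.64, SE 0.18, limma adjusted p = 0.0009). Ppargc1a, the coactivator PGC-1 alpha of mitochondrial genes, was at 2.63 ± 0.741 and 0.523 ± 0.173 FPKM (SD, n = 3 each, -1.24, SE 0.22, limma adjusted p = 0.0129). All 3 were lower again at day 10, as was the kinase Pdk2 (-0.56, adjusted p = 0.0451), while Esrrb (0.74, adjusted p = 0.0223) and Nrf1 (0.48, adjusted p = 0.0292) were higher. After rescaling 4 were lower at day 8, and 5 were lower and 1 higher at day 10, where Esrrb missed (adjusted p = 0.0641). Esrrb, which is also on the list of pluripotent cell markers, is listed at 0 in all 3 stem cell libraries of each line at day 0. Its level is therefore uncertain. At day 12 the difference was -0.38 for Mef2c (SE 0.18, limma adjusted p = 0.243) and -0.57 for Esrrg (SE 0.21, adjusted p = 0.141). For Ppargc1a it was -0.83 (SE 0.25, adjusted p = 0.0827). The knockout means of Mef2c, Esrrg and Ppargc1a were then 73.9%, 57.3% and 43.2% of the control means, and only the Mef2c libraries overlapped.

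The tissue label was checked with cell type markers. At days 8, 10 and 12, 2%, 5.12% and 3.48% of all genes were lower in the knockout and 1.28%, 15% and 3.22% higher. Of the heart muscle markers tested, 12 of 14 were lower in the knockout at day 8, 14 of 15 at day 10 and 13 of 16 at day 12. The other of day 10, Ttn, was called higher and is listed at 0 in its control libraries. The summed level of the 16 markers was 1454 to 1731 FPKM in the control and 237 to 339 FPKM in the knockout at day 8. At day 12 the sums were 1150 to 1327 and 456 to 530 FPKM. Of the regulators of skeletal muscle, Myod1, Myog, Myf5, Myf6 and Pax7 reached at most 0.317, 0.319, 0.486, 0.421 and 0.489 FPKM in any of the 36 libraries. Pax3 reached 2.07 FPKM, in knockout replicate 3 of day 12. The skeletal myosins Myh1, Myh2, Myh4 and Myh8 were all under 0.3 FPKM. Myh3 reached 1.36 FPKM at day 0 and at most 0.145 FPKM at days 8, 10 and 12. Other skeletal genes were measured: in the 18 libraries of days 8, 10 and 12 Tnnt3 reached 7.24 FPKM, Mylpf 6.996, Tnni2 2.90 and Actn3 1.92, and Mylpf reached 89.6 FPKM at day 0. Acta1, an actin of skeletal muscle that embryonic heart also makes, was higher in the knockout at day 8, with 18 ± 2.63 FPKM in the control and 35.3 ± 6.71 in the knockout (SD, n = 3 each; log2 fold change 0.92, SE 0.17, limma adjusted p = 0.0188). It was also higher at day 10 (0.51, adjusted p = 0.0389) and day 12 (0.68, adjusted p = 0.0366). Of all skeletal markers tested, 1 of 5, 2 of 4 and 2 of 6 were higher at days 8, 10 and 12, and 1, 0 and 1 after rescaling. The 10 brown fat and adipocyte markers summed to at most 5.36 FPKM in a late library, and Ucp1 to at most 0.200 FPKM. Other cell types also differed: of the tested pluripotent cell markers 4 of 10 were higher in the knockout at day 8, 8 of 10 at day 10 and none at day 12, and of the endothelial and blood markers 5 of 6 were lower at day 8, 6 of 7 at day 10 and 4 of 7 at day 12. The summed level of the 10 endothelial and blood markers was 100.9 to 101.9 FPKM in the control and 37.3 to 44.0 FPKM in the knockout at day 8, 73.7 to 139 and 43.4 to 82.9 FPKM at day 10, and 80.9 to 112 and 45.8 to 52.2 FPKM at day 12. After rescaling 3, 6 and 0 pluripotent cell markers were higher. At day 10, 7 of 12 visceral endoderm markers were lower, and 0 and 1 of 12 at days 8 and 12, or 1 and 3 after rescaling. Of the neural markers 2 of 4 were higher at day 8, 1 of 4 at day 10 and 2 of 5 at day 12, and after rescaling 1, 1 and 0, with 1 lower at day 8. Of the smooth muscle markers 1 of 5 was higher at day 8, and 2 of 7 and 1 of 7 were lower at days 10 and 12, with 1 lower beside 1 higher at day 8 after rescaling. The part of these shifts in the differences of the members was not tested.

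Each member was set against sarcomere genes of the same library, as log2(FPKM + 1) of the member minus the mean of the sarcomere genes. The reference first chosen, Tnnt2, Actc1, Myl7, Myh6 and Ttn, was set aside. Ttn, the giant titin, was listed at 0 in 9 of the 18 libraries of days 8, 10 and 12, where Tnnt2 was never below 22.1 FPKM, and all 3 control libraries of day 10 were among them. With Ttn included, the difference for Eno3 at day 10 was 0.52, and without it 1.77. The comparison below leaves Ttn out, a choice made after seeing the data. With the 5 genes the differences at days 8, 10 and 12 were 0.67, -0.40 and 0.10 for Pgam2, 0.67, -0.36 and 0.02 for Pygm, and 0.24, -1.42 and -1.15 for Cox6a2. The mean of the 4 genes differed by -2.73 on the log2 scale at day 8, -1.92 at day 10 and -1.40 at day 12, with no overlap of libraries.

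Because the reference fell in the knockout, a gene without a change of its own also gives a positive difference against it. Levels of the members in other cells of the embryoid bodies were not allowed for. Against this reference Eno3 was higher in the knockout at all 3 late days. At day 8 it lay at -2.06, -2.55 and -2.69 in the control and at -0.13, -0.04 and -0.62 in the knockout, a difference of 2.17 on the log2 scale. The difference was 1.77 at day 10 and 2.04 at day 12. Pgam2 gave smaller positive differences, of 1.29, 0.85 and 0.53 at days 8, 10 and 12. Pygm gave 1.29, 0.88 and 0.45. The libraries of the lines did not overlap in any of these 9 comparisons. The deficit of Pgam2 and Pygm in the knockout was smaller than that of the 4 sarcomere genes in each of these comparisons.

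Cox6a2 had a positive difference at day 8 and not later. Its difference against the reference was 0.86 at day 8 without overlap, -0.18 at day 10 with overlap and -0.72 at day 12, where every knockout library was below every control library. Mb lay at 0.16 at day 10 and -0.17 at day 12, with overlap on both days. Low genes are compressed by the pseudocount of 1. With a pseudocount of 0.1, chosen after seeing the data, Cox6a2 gave -0.003, -0.77 and -1.17 and Mb -0.82 and -0.80. With the same pseudocount the difference was 1.21, 0.81 and 0.49 for Pgam2, and 0.78, 0.64 and 0.21 for Pygm, whose libraries then overlapped at day 12. Each comparison without overlap has an exact two-sided permutation p of 0.1, the smallest possible, and 0.118 after adjustment over 20 comparisons. Fabp3 and Cox7a1 were higher against the reference by 2.30 and 2.72 at day 8. The mean of the reference itself differed by -2.73 there, and the log2 fold changes of Fabp3 and Cox7a1 were -0.42 and -0.01.

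**Figure D4:**
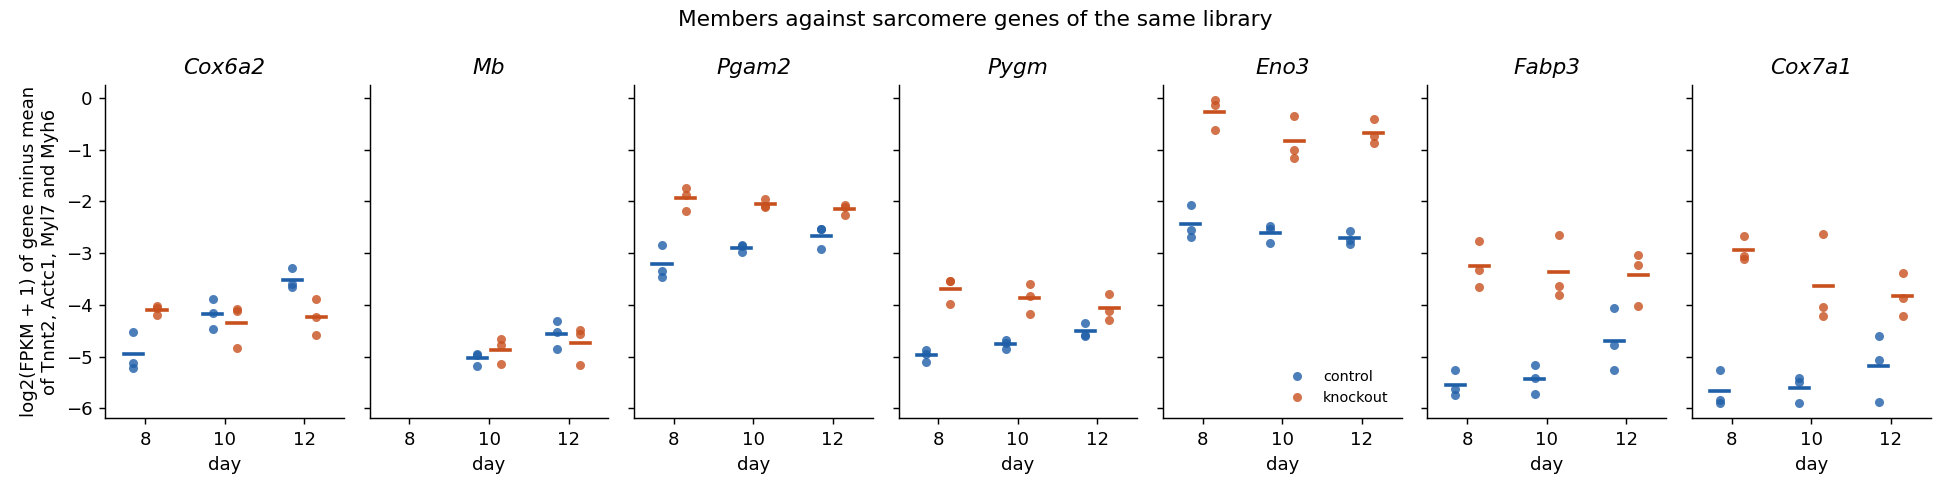
Log2(FPKM + 1) of each member minus the mean log2(FPKM + 1) of Tnnt2, Actc1, Myl7 and Myh6 in the same library (y axis) at days 8, 10 and 12 (x axis), with points for 3 control (blue) and 3 knockout (orange) libraries and bars for their means; Mb was too low at day 8. Knockout libraries lie above control libraries for Eno3, Pgam2 and Pygm on all 3 days, by 2.17, 1.29 and 1.29 at day 8, while Cox6a2 changes from above to below.

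Across the 12 groups, the log2 means of the members that fell were closely alike, as a description over groups that share lines and days. Pearson's r was 0.98 between Cox6a2 and Pygm, 0.95 between Pgam2 and Pygm and 0.95 between Mb and Cox6a2. Eno3 correlated with Pgam2 at 0.88 and with Mb at 0.68. Fabp3 reached at most 0.77, with Pgam2, and Cox7a1 at most 0.10, with Fabp3. With the mean of the 4 sarcomere genes, r was 0.95 for Pgam2, 0.94 for Eno3, 0.93 for Pygm, 0.91 for Cox6a2, 0.84 for Mb, 0.64 for Fabp3 and -0.18 for Cox7a1.

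The 3 genes closest to each member were ranked among 10559 genes by the same measure. For Cox6a2 they were Hspb7, a small heat shock protein of heart muscle (r = 0.987), Myl2, the ventricular myosin light chain (0.980), and Art3 (0.979). Those of Pygm were Mybpc3, the cardiac myosin binding protein (0.985), Hspb7 (0.985) and Ryr2, the calcium release channel of heart muscle (0.984). Pgam2 was closest to Myh6, the alpha myosin heavy chain (0.980), Cd34 (0.975) and Mybpc3 (0.975). Eno3 was closest to Syne2 (0.981), Jph2, a junction protein of heart muscle (0.980), and Prrx2 (0.976). The neighbours of Mb were no muscle genes but Col5a2, a fibrillar collagen (0.984), Tcf21, a factor of the epicardium and other mesenchyme (0.980), and Hgf, a growth factor (0.975). Fabp3 was closest to Col9a2 (0.927), Vkorc1 (0.922) and an entry of Trf, and Cox7a1 to Med13l (0.949), Gm4875 (0.938) and Fam45a (0.933), at lower r than the members that fell.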

How the data were processed

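RNA was measured in 36 libraries of total RNA, made with the ScriptSeq Complete Gold kit per the labels' protocols. The authors deposited FPKM values in 6 tables, 1 per day. Alignment and quantification tools, per the submitters' processing notes, were TopHat and Cufflinks on mm9; versions, settings, annotation and strand handling are not given in the sources used here. Cufflinks can list 0 for an abundant gene, as for Ttn.

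Values were put on the scale log2(FPKM + 1). Genes whose mean over the 6 libraries of a day reached 1 FPKM were tested with limma 3.58.1 in R 4.3.3 (lmFit, eBayes with an abundance trend, two-sided), adjusted by Benjamini-Hochberg over all genes of the day, at a threshold of 0.05. The dependence of the knockout effect on the day was tested by an F test in 1 fit of the 36 libraries. Shares and differences from sarcomere genes were tested by exact two-sided permutation, which cannot go below 0.1 with 3 against 3. The fit was tested on simulated data with 200 changed genes: a log2 change of 1 was recovered for 91%, 39%, 83%, 75%, 88% and 87% at days 0, 3, 5, 8, 10 and 12, on 12189, 11960, 12434, 12686, 12933 and 13075 genes. The changed genes were drawn only from genes of higher level. Recovery for low members such as Fabp3, Pygm, Mb and, after day 0, Cox7a1 is therefore not described.

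The members and the 14 other lists of 197 genes were chosen with earlier results of these data known. Apart from the members, all partners were named, up to 4 genes of each list with the smallest adjusted p at day 8 or 12 whose higher group reached 5 FPKM, and the 3 genes most correlated with each member over group means. Alternatives were another pseudocount, filter, scaling, a replicate block, a single fit of all libraries and leaving out each library. Mymk, Sox1 and Map2 matched no entry. The day 10 count of the creatine, adenylate and ATP transport list is not reported here. Overlapping genes were read from GENCODE annotation on GRCm38 by gene identifier. Python 3.11.15, pandas 2.3.3, numpy 2.4.6 and matplotlib 3.10.9 handled tables and plots.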

Additional observations from a re-analysis of the deposited data

Results flagged for a closer look

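The effect of the knockout differed between days for 5 of the 7 members tested over all 36 libraries, by limma's F test adjusted over 13022 genes, of which 17.1% passed. Cox6a2 had an adjusted p of 7.91e-08, with log2 fold changes of -1.86, -2.10 and -2.12 at days 8, 10 and 12 after levels near 0 at days 3 and 5. Pgam2 had an adjusted p of 2.23e-07, with log2 fold changes of 0.73 at day 3, which missed the threshold in the test of that day, and -1.44 at day 8. Mb had an adjusted p of 5.44e-06, with its difference present at days 10 and 12. Pygm had an adjusted p of 0.000659, with a fall of 1.44 on the log2 scale at day 8 and of 0.95 at day 12. Eno3 had an adjusted p of 0.00807, with -0.56 at day 8 and 0.64 at day 12.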

How the results depend on the processing

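The members called numbered 0, 0, 0, 3, 4 and 5 at days 0, 3, 5, 8, 10 and 12. With no filter on low values, 1 member was called at day 0 and 2 at day 12; with a mean of 5 FPKM or more required, which leaves 2, 3 and 3 members to test, 1, 2 and 3 were called at days 8, 10 and 12. A single fit of all 36 libraries called 1 at day 3, Pgam2 (0.73, adjusted p = 0.00432), and 4 in place of 3 at day 8, with Eno3 added (-0.56, adjusted p = 0.0372). Leaving out a library gave 3 to 5 at day 12 and changed the count at no other day. The 5 members that differed between days did so with the other pseudocount, the rescaling and the block. Counts over all genes moved more: at day 0, 979 were lower and 791 higher, and 478 and 346 with the replicate block; at day 10, 663 and 1946, and 1477 and 1231 after rescaling.

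Same-numbered libraries of the lines showed no steady pairing: their residuals correlated at -0.122 to 0.273, and at no day were all 3 pairs above 0.1. At day 5 all 3 were positive (0.061, 0.207 and 0.077). The block raised the lower and higher calls over all genes from 80 and 130 to 129 and 213 at day 3. At day 8 they rose from 254 and 163 to 294 and 296, and at day 12 they fell from 456 and 422 to 298 and 166. With the replicate block, 1 member was called at day 5, Cox7a1 (0.70, adjusted p = 0.0458), Eno3 passed at day 8 (adjusted p = 0.0479) and missed at day 12 (adjusted p = 0.0609), and Mb missed for day 12 minus day 8 (adjusted p = 0.0607).

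Small uncalled differences changed sign. Fabp3 was at -0.092 at day 3 and -0.013 at day 10 and Cox7a1 at -0.095 at day 10 after rescaling, and Cox7a1 at 0.015 at day 8 with pseudocount 0.1. Leaving out a library gave ranges of -0.00021 to 0.16 for Eno3 at day 0; of -0.28 to 0.17, -0.15 to 0.11, -0.017 to 0.28 and -0.39 to 0.19 for Fabp3 at days 3, 5, 10 and 12; and of -0.19 to 0.29, -0.22 to 0.26 and -0.34 to 0.23 for Cox7a1 at days 8, 10 and 12. With no filter, Pygm missed at day 8 (adjusted p = 0.101), and Mb, Pgam2, Pygm and Eno3 at day 12 (adjusted p = 0.0628, 0.0786, 0.0897 and 0.111), with 26809 genes tested at day 8 and 25877 at day 12 in place of 12695 and 13089. Without read counts no limit of detection can be given for Ckm, Ckmt2 and Cox8b.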
